A study of Mus musculus with 7 samples.

Results

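The loci of 10 transcription factor genes of the fibroblast and mesenchymal lineage were followed by ATAC-seq from mouse embryonic fibroblasts (MEFs) through reprogramming to embryonic stem cells (ESCs). The genes form 5 pairs of related factors, *Prrx1* and *Prrx2*, *Twist1* and *Twist2*, *Meox1* and *Meox2*, *Osr1* and *Osr2*, and *Tbx15* and *Tbx18*. They were named as a list of 10 of the 21938 protein-coding genes of GENCODE M21. A window from 20 kb before to 20 kb after each gene body was searched for called peaks. Peaks of all libraries that overlapped or touched were merged into 1 region, and the 10 windows held 76 of the 104248 regions of the genome. A region was counted in a library when a peak of that library overlapped it by at least 1 bp, and widths are summed where a library had several peaks in a region.

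The members encode homeodomain proteins (Prrx and Meox), basic helix-loop-helix proteins (Twist), zinc finger proteins (Osr) and T-box proteins (Tbx). They pattern the mesenchyme of limb, face, somites, dermis and urogenital tract, and Twist factors are known to drive epithelial to mesenchymal transition, the reverse of a step that fibroblasts take early in reprogramming. ATAC-seq reads where the Tn5 transposase can reach DNA, at promoters and at distal elements such as enhancers, and a called peak marks a stretch where reads piled up beyond the caller's threshold.

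The study followed MEFs carrying the allele Col1a1tm1(tetO-Pou5f1,-Klf4,-Sox2,-Myc)Hoch, which places Oct4, Klf4, Sox2 and c-Myc (OKSM) in the *Col1a1* locus under a doxycycline-dependent promoter, together with the transactivator allele Gt(ROSA)26Sortm1(rtTA*M2)Jae. The fibroblasts came from embryos without head, heart and liver, and were collected untreated (day 0) or after 1, 2, 3, 6 and 9 days with 2 µg/mL doxycycline. The remaining library was made from untreated ESCs, labelled as the Bruce-4 line, although the genotype entered for it is that of the MEFs. All groups of the time course, day 0 included, carry both transgenes, and no library of doxycycline-treated cells without the cassette was analysed here.

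Each time-point has 1 library, so there is no replicate error and no test between time-points. The lists held between 27074 peaks (ESCs) and 61241 peaks (day 0), called after downsampling to a common depth that is not stated, and no peak carries a score. The lists of days 2 and 9, with 33174 and 33007 peaks, were shorter than those of days 1, 3 and 6, with 44855 to 48087. Of 11 fibroblast markers, 9 had a peak within 1 kb of a transcription start site (TSS) on day 0, 5 to 9 on days 1 to 9 and 3 in ESCs. Of 8 ESC markers, only *Pou5f1* and *Zfp42* had one in the ESC library, and 1 to 3 had one in each other library. Over all protein-coding genes the share with one was 58.4% on day 0, 50.5 to 56.2% on days 1 to 9 and 49.3% in ESCs. The ESC markers thus did not set the ESC library apart, and its identity rests on its label. For other cells that an embryo holds, day 0 had a TSS peak at 4 of 4 endothelial, 2 of 3 blood, 2 of 3 neural, 0 of 3 epithelial and 0 of 3 muscle markers. Cells in different states share each library, and fewer cells of a kind and less accessible chromatin per cell cannot be told apart.

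Stretches of 200 bases from regions with different fates are shown first, since the rest of the account turns on them. They were read from mm10 on the plus strand, at the centre of the widest day 0 peak or, for regions without one, of the widest peak of any library. Capitals mark matches to any of 9 short motifs on either strand. The motifs were AP-1 (TGANTCA), TEAD (GGAATG), RUNX (TGTGGT), homeodomain (TAATTA), an E-box of the kind Twist proteins bind (CATCTG), the octamer bound by Oct4 (ATGCAAAT), SOX (ACAATGG), KLF (GGGNGGGG) and the core of CTCF (AGGGGGC). KLF and CTCF letters can overlap each other, and a match describes the letters and not a bound site.
Twist1 start region, peak in all 7 libraries, chr12:33957405-33957604: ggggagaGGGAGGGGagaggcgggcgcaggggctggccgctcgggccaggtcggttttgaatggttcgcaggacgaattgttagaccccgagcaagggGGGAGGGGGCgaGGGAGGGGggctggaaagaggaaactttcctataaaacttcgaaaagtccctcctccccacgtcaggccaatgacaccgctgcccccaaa
Prrx1 downstream region, peak on day 0 alone, chr1:163239336-163239535: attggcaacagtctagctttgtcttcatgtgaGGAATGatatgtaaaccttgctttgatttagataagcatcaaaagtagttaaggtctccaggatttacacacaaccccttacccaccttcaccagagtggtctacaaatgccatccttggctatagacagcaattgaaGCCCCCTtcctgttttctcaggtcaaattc
Prrx2 intron, peak on days 0 to 9 and none in ESCs, chr2:30865036-30865235: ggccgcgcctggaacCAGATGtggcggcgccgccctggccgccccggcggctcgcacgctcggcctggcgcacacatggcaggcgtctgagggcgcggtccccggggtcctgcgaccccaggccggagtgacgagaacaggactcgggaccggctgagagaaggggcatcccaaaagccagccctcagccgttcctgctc
Twist2 downstream region, peak on days 0 to 9 and none in ESCs, chr1:91858215-91858414: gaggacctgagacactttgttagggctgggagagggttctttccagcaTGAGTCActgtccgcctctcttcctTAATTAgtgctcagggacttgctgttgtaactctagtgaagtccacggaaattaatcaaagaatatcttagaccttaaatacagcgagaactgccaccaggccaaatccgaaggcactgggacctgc
Tbx18 upstream region, peak on day 6 and in ESCs, chr9:87740491-87740690: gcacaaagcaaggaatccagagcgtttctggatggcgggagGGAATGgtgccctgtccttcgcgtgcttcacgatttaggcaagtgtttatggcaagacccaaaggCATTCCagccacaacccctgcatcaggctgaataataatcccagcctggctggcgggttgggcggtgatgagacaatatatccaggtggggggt
Prrx1 intron, peak on each doxycycline day alone, chr1:163282107-163282306: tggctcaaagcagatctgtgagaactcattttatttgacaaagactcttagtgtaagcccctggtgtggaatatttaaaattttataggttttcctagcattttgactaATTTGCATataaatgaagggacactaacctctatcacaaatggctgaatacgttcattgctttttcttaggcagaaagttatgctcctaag
Prrx2 downstream region, peak on each doxycycline day alone, chr2:30885853-30886052: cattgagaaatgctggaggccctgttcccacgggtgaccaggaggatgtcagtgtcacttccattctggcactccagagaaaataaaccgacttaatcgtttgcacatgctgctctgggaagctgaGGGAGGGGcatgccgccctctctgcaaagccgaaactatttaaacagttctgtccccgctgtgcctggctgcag

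The stretch of *Twist1* lies just upstream of the gene and held 3 KLF matches and 1 CTCF core match. Peaks of days 0, 1, 3, 6 and 9 covered some of these bases, while those of day 2 and of ESCs lay farther into the gene. The intron of *Prrx1* held 1 octamer match, the reverse complement of the letters above. The downstream region of *Twist2* held 1 AP-1 and 1 homeodomain match, and the *Prrx2* intron held 1 E-box in a stretch of 73.5% GC.

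Peaks near the 10 genes were about as many on days 1, 3 and 6 as on day 0, and fewer in the day 2, day 9 and ESC libraries. The 10 windows together had 40, 38, 27, 42, 42 and 21 peaks on days 0, 1, 2, 3, 6 and 9, and 15 in ESCs. Relative to day 0 the later libraries stood at 95, 67.5, 105, 105, 52.5 and 37.5%. The totals of the whole libraries were 74.6, 54.2, 78.5, 73.2, 53.9 and 44.2% of day 0. By this measure the members lay above the library as a whole on days 1, 2, 3 and 6, close to it on day 9 and below it in ESCs. Only 15 to 42 peaks stand behind each percentage, and no interval was computed. Per 10 kb of window, the median member had 0.449, 0.449, 0.379, 0.501, 0.491 and 0.216 peaks along the course and 0.203 in ESCs. The median over all protein-coding genes was 0.394, 0.298, 0.221, 0.323, 0.302, 0.222 and 0.195. In ESCs the median member was thus not below the median gene by this density. When the 27074 widest peaks of each library were used, the windows held 18, 20, 22, 23, 25, 20 and 15 peaks in the same order, so that days 1 to 9 stood above day 0.

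**Figure D1:**
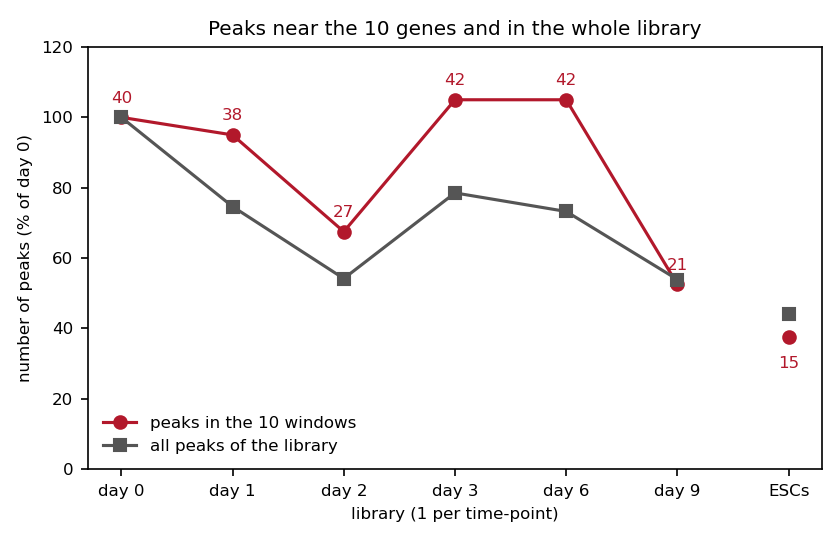
Number of called peaks in each of the 7 libraries as a percentage of day 0, for the 10 gene windows (red circles, number of peaks printed) and for the whole library (grey squares). The 10 windows stood at 105% on days 3 and 6, where the libraries had 78.5 and 73.2%, and at 37.5% in ESCs, where the library had 44.2%.

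**Figure D2:**
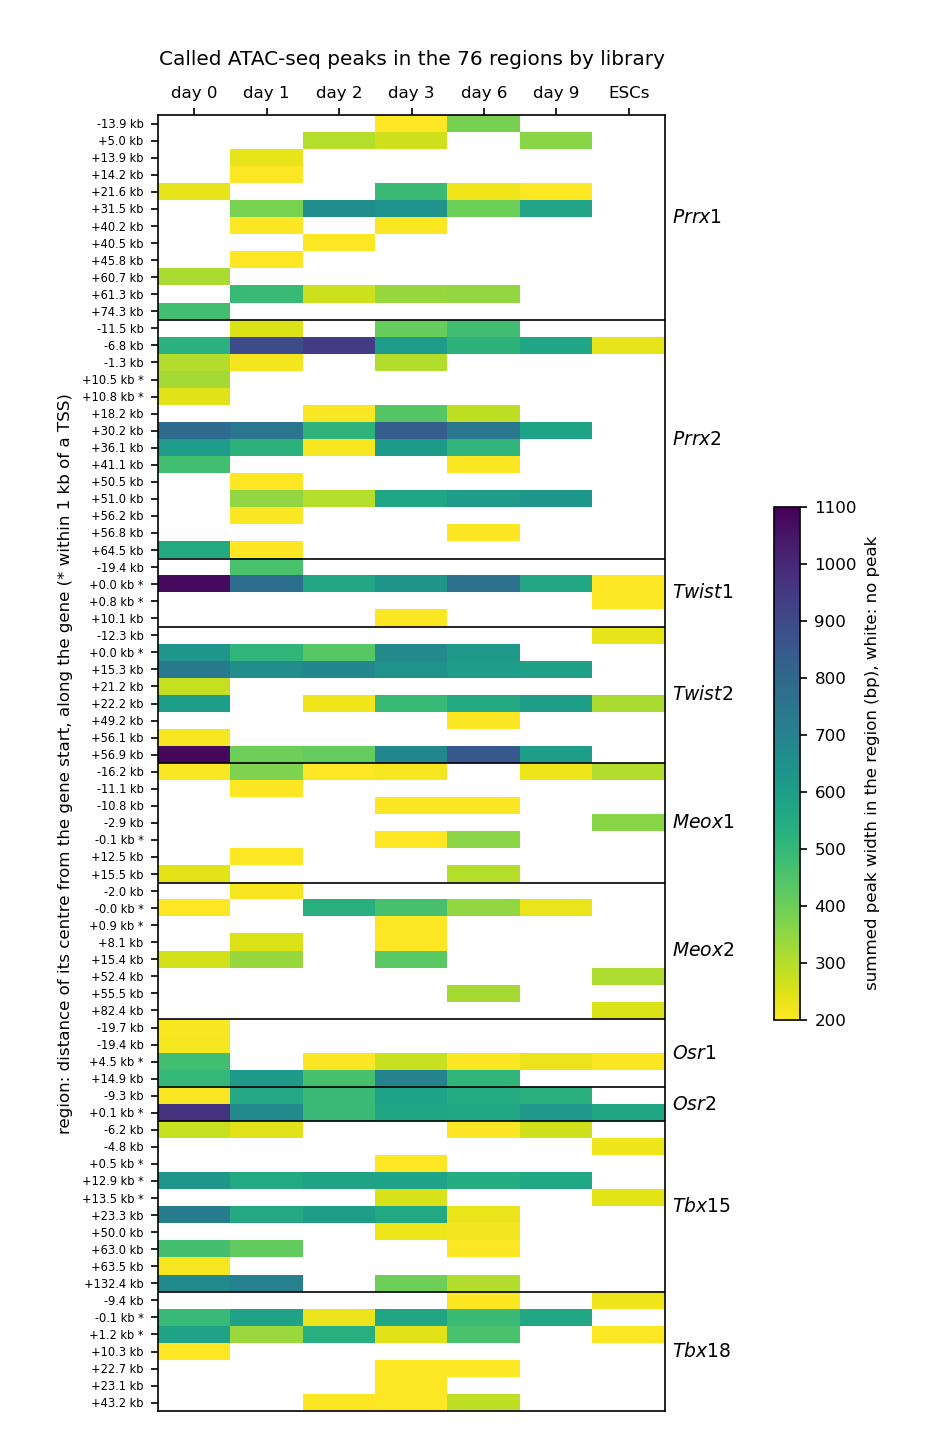
All 76 regions of the 10 windows (rows, ordered along each gene by the distance of the region's centre from the gene start in kb) in the 7 libraries (columns), coloured by the summed width of the peaks in the region in bp, with white for no peak. Regions marked with a star lie within 1 kb of a TSS. Only 3 of the 76 regions are coloured in all 7 libraries.

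At the *Prrx1* locus (chr1:163245119-163313710, minus strand), the called peaks of day 0 and day 1 did not overlap. *Prrx1*, a homeobox gene of limb and craniofacial mesenchyme, had 3 peaks on day 0, then 6, 4, 6, 4 and 3 on days 1, 2, 3, 6 and 9, and was the only member without a peak in ESCs. Over the whole genome 27.0% of protein-coding genes had no peak in their window in ESCs. The 3 day 0 regions were not those of day 1, since none of them had a peak on day 1 or day 2. The intergenic region beyond the gene's end (chr1:163239200-163239671, 472 bp on day 0) and the region over an exon with UTR (chr1:163252869-163253184, 316 bp) had a peak on day 0 alone. The intronic region chr1:163291820-163292441 had a peak of 235 bp on day 0, none on days 1 and 2, and peaks of 488, 220 and 200 bp on days 3, 6 and 9.

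All other *Prrx1* regions, 9 of 12, had peaks on doxycycline days alone (genome 70.4% of regions without a day 0 peak). Of these 9, 4 had a peak in 1 library (44.4%, genome 39.2%). The region with the widest peak in any library lies in an intron 31462 bp from the gene start (chr1:163281878-163282620, also in an intron of the antisense gene Gm20471). It had peaks of 382, 658, 638, 399 and 574 bp on days 1, 2, 3, 6 and 9. This is the region whose octamer is shown above. A second intronic region, chr1:163251993-163252761, had peaks of 489, 267, 339 and 347 bp on days 1, 2, 3 and 6 and none later. It lies within 300 bp of the exon region that had a peak on day 0 alone. With peaks within 300 bp merged, both fall into 1 region, so a shifted peak and a lost one cannot be told apart there. No library had a peak within 1 kb of the 3 annotated TSSs of *Prrx1*, and the nearest region, 4782 bp into the gene, had a peak on days 2, 3 and 9.

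*Prrx2* (chr2:30834972-30881251, plus strand), the close relative of *Prrx1*, had the most peaks of any member on day 0. Its counts from day 0 to day 9 were 8, 9, 6, 7, 8 and 4, with 1 in ESCs. The intronic region shown above (chr2:30864744-30865575) had 784, 748, 513, 827, 742 and 579 bp of peak from day 0 to day 9 and none in ESCs. A second intronic region, chr2:30870749-30871363, had 604, 521, 209, 608 and 508 bp on days 0 to 6 and no peak on day 9 or in ESCs. These regions lie 19685 and 25690 bp from the nearest TSS of the gene, and both lost their peak late.

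Just before the first TSS of *Prrx2*, at 1015 bp from it, the region chr2:30833478-30833957 had 303, 215 and 302 bp of peak on days 0, 1 and 3 and none on day 2 or from day 6 on. At its second TSS the change came at the first step. The regions chr2:30845288-30845608 (321 bp, over an exon with UTR) and chr2:30845678-30845919 (242 bp, over an exon) had a peak on day 0 and in no later library. Downstream of the gene, the intergenic region chr2:30885643-30886299 had no day 0 peak and peaks of 345, 299, 566, 605 and 621 bp on days 1, 2, 3, 6 and 9, and none in ESCs. The single ESC peak of the window, 233 bp wide, lay over an exon of the neighbouring gene *Asb6* (chr2:30827576-30828686), where all 7 libraries had a peak. The window also reaches into *Ntmt1* and *Ptges*, so these peaks need not belong to *Prrx2*. In an intron of *Ptges*, a gene of prostaglandin synthesis, the region chr2:30899223-30899775 had 553 bp on day 0, 200 bp on day 1 and none later.

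**Figure D3:**
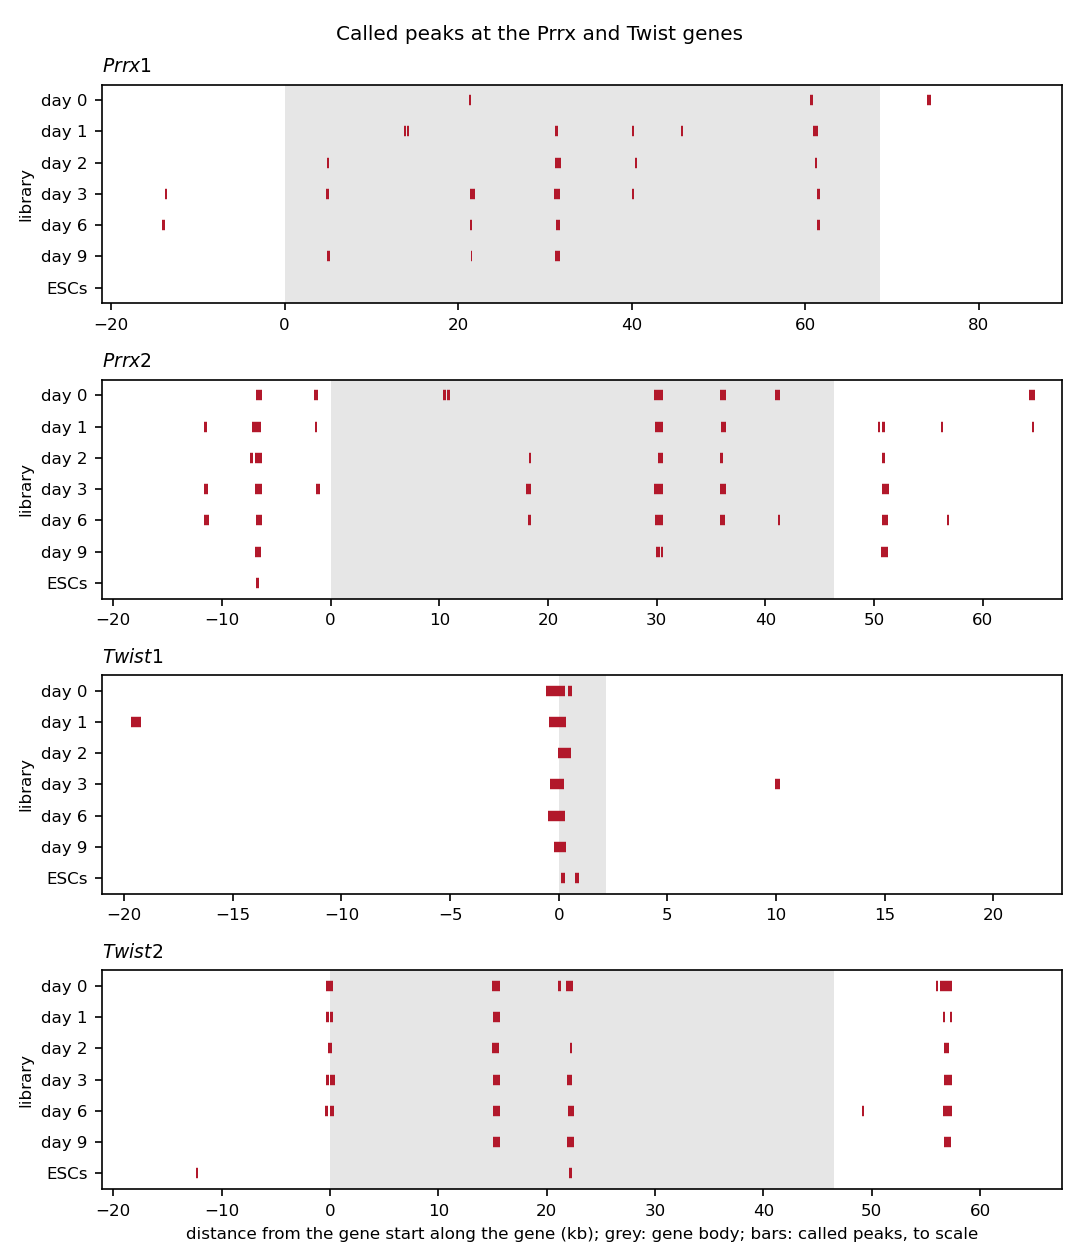
Called peaks (red bars, to scale) of the 7 libraries (rows) at *Prrx1*, *Prrx2*, *Twist1* and *Twist2*, by distance from the gene start along the gene in kb, with the gene body in grey. *Prrx1* has no bar in ESCs and a column of bars from day 1 to day 9 in its intron, and the start of *Twist1* has a bar in all 7 libraries.

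*Twist1* (chr12:33957671-33959829, plus strand), which encodes a basic helix-loop-helix driver of mesenchymal identity, had most of its peaks at its start. Its window held 2, 2, 1, 2, 1 and 1 peaks from day 0 to day 9 and 2 in ESCs. The start region chr12:33957067-33958279 had 1077, 775, 565, 634, 768 and 565 bp of peak from day 0 to day 9 and 200 bp in ESCs. Day 0 was thus the widest and ESCs the narrowest, and no library lacked a peak. A further ESC peak of 200 bp lay within the transcribed part (chr12:33958414-33958613) and was seen in no other library. GENCODE M21 lists no other gene in the window.

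*Twist2* (chr1:91801461-91848028, plus strand), its relative of the dermis, had a larger set of distal regions. It had 6, 5, 4, 5, 6 and 3 peaks from day 0 to day 9 and 2 in ESCs. The start region chr1:91801033-91801895, which also covers an exon of the antisense gene Gm29100, had 627, 508, 434, 675 and 617 bp of peak on days 0, 1, 2, 3 and 6 and none on day 9 or in ESCs. Of its 5 distal day 0 regions, 3 still had a peak on day 9. The intronic region chr1:91816414-91817165 had 736, 654, 683, 640, 604 and 585 bp on days 0 to 9, and the downstream region shown above (chr1:91857774-91858862) had 1082, 400, 414, 679, 853 and 600 bp. Neither had a peak in ESCs. The other 2, chr1:91822553-91822831 (279 bp) in an intron and chr1:91857415-91857625 (211 bp) downstream, had a peak on day 0 alone. Both flank lasting regions. The downstream one lies within 300 bp of chr1:91857774-91858862, and the intronic one within 500 bp of chr1:91823272-91823977.

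The third of the lasting distal regions of *Twist2*, in an intron (chr1:91823272-91823977), had a gap on day 1 and a peak in ESCs. It had 599 bp of peak on day 0, none on day 1, then 218, 490, 549 and 596 bp on days 2, 3, 6 and 9, and 314 bp in ESCs. The ESC library also had a peak of 233 bp upstream of the gene (chr1:91789093-91789325) that no other library had. On day 9, *Twist1* thus had its peak at the start, while *Twist2* had peaks in 3 distal regions and none at the start, with 1 library behind each value.

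The *Meox* genes, homeobox genes of the somites and, for *Meox2*, of limb muscle and vessels, had few and narrow peaks. *Meox1* (chr11:101877510-101894374, minus strand) had 2, 3, 1, 3, 3 and 1 peaks on days 0, 1, 2, 3, 6 and 9 and 2 in ESCs. Its start region (chr11:101894321-101894677) had no day 0 peak and peaks of 202 and 357 bp on days 3 and 6, and was empty in all other libraries. The upstream region chr11:101910299-101910793, 15925 bp from the TSS, had peaks of 207, 375, 200 and 212 bp on days 0, 1, 2 and 3, none on day 6, 222 bp on day 9 and 302 bp in ESCs. Several of these are at or near 200 bp, the smallest width in the lists. A region over an exon (chr11:101878669-101879056) had a peak in 2 libraries, of 238 bp on day 0 and of 300 bp on day 6. An ESC peak of 360 bp closer to the gene (chr11:101897077-101897436) was seen in no other library.

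*Meox2* (chr12:37108540-37179534, plus strand) had 2, 3, 1, 4, 2 and 1 peaks on days 0, 1, 2, 3, 6 and 9 and 2 in ESCs. Its start region (chr12:37108152-37108846) was widest on day 2, with 200 bp of peak on day 0, none on day 1, then 533, 463, 346 and 227 bp on days 2, 3, 6 and 9, and none in ESCs. An intronic region, chr12:37123659-37124307, had 263 and 339 bp of peak on days 0 and 1, a gap on day 2, 432 bp on day 3 and no peak from day 6 on. The ESC peaks of *Meox2*, 312 bp in an intron (chr12:37160785-37161096) and 246 bp downstream (chr12:37190840-37191085), were seen in ESCs alone.

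*Osr1* and *Osr2*, odd-skipped related zinc finger genes known from kidney, limb and palate mesenchyme, differed at their starts. *Osr1* (chr12:9570116-9581500, plus strand) had 5 peaks on day 0 and 1, 2, 2, 3, 1 and 1 in the later libraries. The region over its second TSS (chr12:9574235-9574962) had 472 bp of peak on day 0, none on day 1, and between 200 and 275 bp in each later library, ESCs included. An intergenic region 10243 bp from the TSS (chr12:9584684-9585397) had 500, 612, 463, 699 and 510 bp on days 0, 1, 2, 3 and 6 and no peak afterwards. A pair of narrow regions upstream, of 210 and 214 bp, had a peak on day 0 alone.

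*Osr2* (chr15:35296098-35303305, plus strand) had a peak at its start in each library. The start region chr15:35295679-35296645 had 967, 668, 491, 566, 561 and 613 bp of peak from day 0 to day 9 and 566 bp in ESCs. The 491 bp of day 2 are the sum of 2 peaks of 256 and 235 bp. Day 0 stood above the others, and ESCs lay within the range of days 1 to 9. The upstream region chr15:35286467-35287124 went from 206 bp on day 0 to 556, 486, 578, 546 and 529 bp on days 1 to 9 and had no peak in ESCs. No other region was found in the window of *Osr2*.

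The T-box genes *Tbx15*, of skin and skeleton, and *Tbx18*, of somites, epicardium and ureter mesenchyme, had 9 day 0 regions, of which 3 had no peak from day 9 on (background 10.0%) and 3 had none in ESCs alone (background 15.7%). The 3 without a peak from day 9 on were all of *Tbx15* (3 of 6), with 0 of 3 at *Tbx18*. Of the 3 lost in ESCs alone, 2 were of *Tbx15* and 1 of *Tbx18*. *Tbx15* (chr3:99240381-99354259, plus strand) had 6, 5, 2, 6, 7 and 3 peaks from day 0 to day 9 and 2 in ESCs. The intronic region 133 bp from its second TSS (chr3:99252957-99253627) had 625, 551, 580, 579, 544 and 564 bp of peak on days 0 to 9 and none in ESCs. Right beside it, the region over that TSS (chr3:99253723-99254020) had a peak of 255 bp on day 3 and of 238 bp in ESCs and in no other library. The intronic region chr3:99263332-99264101 had 722, 557, 595, 553 and 226 bp on days 0, 1, 2, 3 and 6 and no peak later. The farthest region, 132401 bp downstream of the gene start (chr3:99372418-99373147), had 670 and 704 bp on days 0 and 1, none on day 2, 398 and 302 bp on days 3 and 6, and none afterwards. Upstream, the region chr3:99233928-99234418 in an intron of *Wars2* had narrow peaks of 276, 239, 200 and 265 bp on days 0, 1, 6 and 9 alone. No day 0 region of *Tbx15* had a peak in ESCs (0 of 6, which allows up to 45.9%), where 78.6% of all day 0 regions had none.

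*Tbx18* (chr9:87702800-87731260, minus strand) had 4, 2, 3, 5, 6 and 1 peaks on days 0, 1, 2, 3, 6 and 9 and 2 in ESCs. The region over its TSS (chr9:87731031-87731664) had 494, 581, 227, 569, 488 and 565 bp of peak from day 0 to day 9 and none in ESCs. The region just inside the gene (chr9:87729583-87730617) had 582, 335, 534, 240 and 460 bp on days 0 to 6, none on day 9 and 200 bp in ESCs. Its peaks of day 2, day 3 and ESCs lay farther than 1 kb from the TSS, as did a day 0 peak of 281 bp. The only day 0 region farther from the TSS, in an intron (chr9:87720832-87721033), had 202 bp on day 0 and no later peak. The upstream region shown above (chr9:87740482-87740800) had 200 bp on day 6 and 219 bp in ESCs. Both regions at the start also cover an exon of D030062O11Rik, a transcript of the other strand.

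The starts of the 10 genes differed widely among themselves. A peak within 1 kb of a TSS was present at 8 of the 10 members on day 0, where 58.4% of all protein-coding genes had one. The number was 5 on day 1 (background 54.5%), 7 on day 2 (background 50.5%), 8 on day 3 (background 55.2%), 8 on day 6 (background 56.2%), 6 on day 9 (background 52.3%) and 4 in ESCs (background 49.3%). *Twist1*, *Osr2* and *Tbx15* had one in all 7 libraries, and in ESCs *Osr1* was the other. *Tbx15* reached this number through different regions in different libraries. *Prrx1* had none at any time and *Prrx2* had one on day 0 alone. When only the start of the gene record counted, the number was 5 on day 0 and 2 in ESCs.

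**Figure D4:**
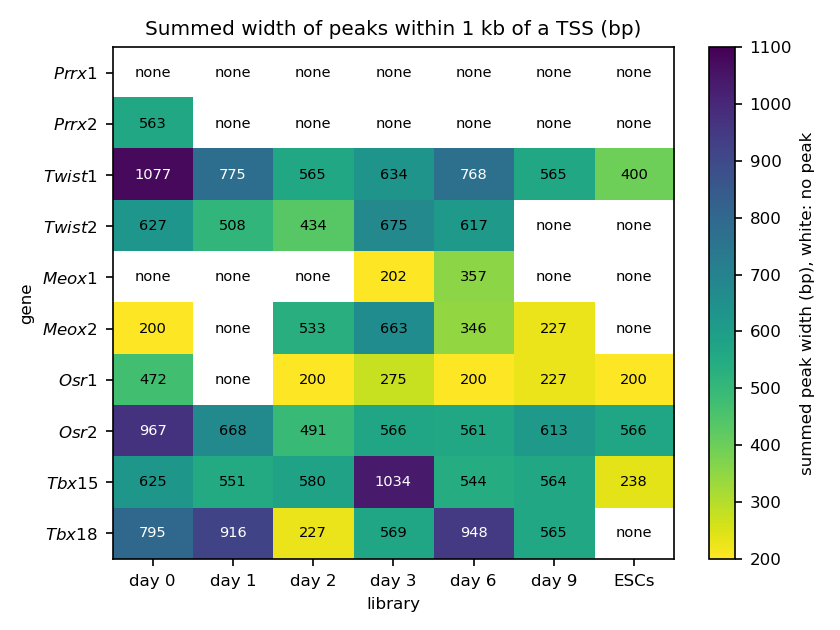
Summed width in bp of the called peaks within 1 kb of any TSS of each of the 10 genes (rows) in the 7 libraries (columns), printed in each cell and coloured, with none for no peak. *Twist1* goes from 1077 bp on day 0 to 400 bp in ESCs, while *Osr2* has 967 and 566 bp.

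The base composition around the starts differed between members. Within 500 bp of the start of the gene record, the ratio of observed to expected CpG was 0.871 in *Twist1*, 0.801 in *Twist2*, 0.754 in *Tbx18* and 0.737 in *Osr2*, all above the median of all protein-coding genes (0.552). It was 0.470 in *Prrx1*, 0.468 in *Osr1*, 0.444 in *Meox2*, 0.416 in *Meox1*, 0.364 in *Tbx15* and 0.20 in *Prrx2*. At the second TSS, where *Tbx15*, *Prrx2* and *Osr1* had day 0 peaks, it was 0.759, 0.665 and 0.595, so that these genes lay on different sides of the median depending on the TSS. RefSeq promoters of GRCm38.p6, which is mm10, were at hand for 6 members, and 250 bases upstream of the RefSeq start held 23 CG in *Twist2*, 21 in *Prrx2*, 18 in *Twist1*, 15 in *Tbx18*, 12 in *Meox2* and 4 in *Prrx1*, against a median of 6 over 32851 promoters. A peak within 1 kb of a TSS on day 0 and none in ESCs was seen at *Twist2*, *Tbx18*, *Meox2* and *Prrx2*. Of these, the promoters of *Twist2* and *Tbx18* are shown with CG in capitals, each on the strand of its gene.
Twist2, chr1:91801211-91801460, plus strand: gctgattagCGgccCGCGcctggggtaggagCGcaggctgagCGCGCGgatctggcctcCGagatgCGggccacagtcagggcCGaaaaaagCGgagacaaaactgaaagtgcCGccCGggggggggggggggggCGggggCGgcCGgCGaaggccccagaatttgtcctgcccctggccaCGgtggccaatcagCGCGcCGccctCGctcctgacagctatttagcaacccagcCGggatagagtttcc
Tbx18, chr9:87731261-87731510, minus strand: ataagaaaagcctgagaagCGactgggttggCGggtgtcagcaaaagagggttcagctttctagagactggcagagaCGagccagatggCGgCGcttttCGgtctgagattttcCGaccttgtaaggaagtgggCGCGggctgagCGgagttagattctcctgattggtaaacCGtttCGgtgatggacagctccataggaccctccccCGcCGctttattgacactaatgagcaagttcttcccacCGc

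The regions with a peak on day 0 were then followed as a group. The 10 windows held 37 of the 58812 day 0 regions of the genome. Of these 37, 21 had a peak on day 1 (56.8%, exact 95% interval 39.5 to 72.9). The later numbers were 18, 22, 23 and 15 on days 2, 3, 6 and 9 (48.6, 59.5, 62.2 and 40.5%), and 7 in ESCs (18.9%, 7.96 to 35.2). Intervals cover counting error only and take regions as independent, which regions of 1 gene need not be. Without a peak were thus 16 regions on day 1 (background 55.3% of all day 0 regions), 19 on day 2 (background 65.3%) and 15 on day 3 (background 54.7%). There were 14 on day 6 (background 56.5%), 22 on day 9 (background 65.3%) and 30 in ESCs (background 78.6%). The members kept 48.6 to 62.2% on days 1 to 6, where all regions of the genome kept 34.7 to 45.3% and the windows of all protein-coding genes, built in the same way, kept 39.5 to 49.8%. The genome's share lay within the members' interval on days 1, 2 and 3, and below it on day 6 (43.5% against 44.8 to 77.5). That of the windows of all protein-coding genes lay within the interval on each of these days. Counted per gene, the members did not lie above the others. The median member kept 56.25, 50.0, 58.3 and 58.3% of its day 0 regions on days 1, 2, 3 and 6, and the median of 17636 genes with such a region was 60.0, 50.0, 60.0 and 60.0%. On day 9 and in ESCs these medians were 41.7 and 20.8% in the members against 50.0 and 33.3%.

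The members lay above the genome in regions away from promoters. Of the 27 member regions farther than 1 kb from any TSS, 55.6, 37.0, 51.9, 55.6 and 33.3% had a peak on days 1, 2, 3, 6 and 9, and 11.1% in ESCs. Such regions of the whole genome kept a peak in 33.6, 22.6, 34.1, 31.5, 21.9 and 7.29%. The genome's set also holds regions far from any gene. Distal regions in the windows of all protein-coding genes were not counted apart, so nearness to a gene is not matched here. The genome's share lay below the members' interval on day 1 (35.3 to 74.5) and on day 6 (35.3 to 74.5), and within it on days 2, 3 and 9 and in ESCs. The day 0 peaks of both groups were of like width, with a median of 316 bp in the members and 329 bp in the genome. With the 27074 widest peaks of each library, 12 such member regions were left, of which 58.3% had a peak on day 1 (27.7 to 84.8) against 38.9% of the genome, and the genome lay within the interval in all later libraries too.

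Near a TSS the members lay above the genome on day 2 only. Of 10 member regions within 1 kb of a TSS, 6, 8, 8, 8 and 6 had a peak on days 1, 2, 3, 6 and 9, and 4 in ESCs (40.0%, 12.2 to 73.8). The genome's shares were 81.7, 75.2, 82.6, 83.9, 77.7 and 68.5%, each within the wide intervals that 10 regions give.

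**Figure D5:**
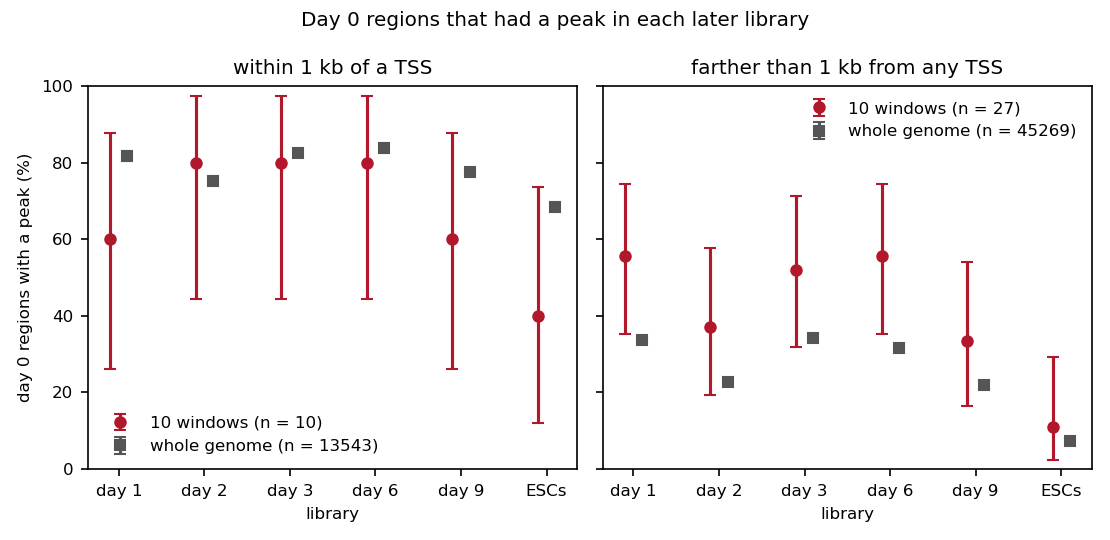
Percentage of day 0 regions with a peak in each later library, for the 10 windows (red circles) and the whole genome (grey squares), within 1 kb of a TSS (left) and farther away (right). Bars are exact 95% intervals and cover counting error only. On the right the members lie above the genome in all 6 libraries, and on day 1 and day 6 the genome lies below the members' interval.

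Each day 0 region was dated by the earliest library from which on it had no peak. From day 1 on, 10 of 37 regions had none (27.0%, 13.8 to 44.1, background 42.4%). This happened from day 2 on in 1 region (background 3.58%), from day 3 in 0 (background 1.03%, and a count of 0 allows up to 9.49%), from day 6 in 2 (background 5.94%), from day 9 in 8 (background 10.0%) and in ESCs alone in 9 (background 15.7%). The remaining 7 had a peak in ESCs. Dated instead by the first library without a peak, whether or not one returned, 16, 6, 0, 1 and 5 regions fell on days 1, 2, 3, 6 and 9 and 6 on ESCs, and 16 of 37 is 43.2% (genome 55.3%). The share lost from day 1 depended on the rule for a region. It was 15.2% (genome 37.9%) with peaks within 300 bp merged, 17.5% (genome 35.8%) when a peak within 500 bp counted, 16.7% (genome 28.2%) with equal numbers of widest peaks and 40.5% (genome 49.4%) when 50% of the day 0 bases had to be covered. The 10 regions lost at once lay at *Prrx1*, *Prrx2*, *Twist2* and *Osr1* with 2 each and *Tbx15* and *Tbx18* with 1 each. The 9 lost in ESCs alone included 2 each of *Twist2* and *Tbx15* and 1 each of *Prrx1*, *Prrx2*, *Meox2*, *Osr2* and *Tbx18*.

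Among distal regions, 8 of 27 had no peak from day 1 on (29.6%, 13.8 to 50.2), while the genome's 52.2% lay above that interval. The genome lay within the interval with equal numbers of widest peaks (25.0%, 5.49 to 57.2, genome 43.3%) and with 50% of the bases covered (44.4%, 25.5 to 64.7, genome 60.4%). Regions lost at once had narrow day 0 peaks, with a median of 228 bp (202 to 472, n = 10) against 525 bp in the 15 regions that had a peak on day 9, and the genome showed the same order (245 and 614 bp). Widths near the smallest called, 200 bp, thus moved with early loss, and their part in it was not tested. Without the libraries of days 2 and 9, 11 of 38 regions were lost from day 1, 3 from days 3 or 6 and 17 in ESCs alone, since the regions dated to day 9 then count with those of ESCs.

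Regions without a day 0 peak numbered 39 in the 10 windows. Of these, 8 had a peak in ESCs (20.5%, 9.30 to 36.5, background 29.6%), 6 of them in no other library (15.4%, genome 22.4%). The other 31 had a peak on doxycycline days alone (79.5%, genome 70.4%), 17 of them in 1 library (43.6%, genome 39.2%). Those seen in 1 library, ESCs included, were narrow, with a median of 200 bp (n = 23), while those seen in several had a median of 322 bp (n = 16). The genome showed the same order (227 and 469 bp). Each region was taken at its largest width in any library, which by itself favours regions seen in several. The regions of *Prrx1* and *Prrx2* described above were the 2 with a peak on each doxycycline day and neither on day 0 nor in ESCs (background 6.51%). Across the genome the 200 bases at the centre of such regions held the octamer in 7.17% (212 of 2957), against 0.996% of day 0 regions, and 0 of the 37 member day 0 regions held it. A peak in all 7 libraries was found in 3 of the 76 regions, at *Twist1*, *Osr2* and *Asb6* (background 9.74%).

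Over all day 0 regions, the genome's share of each of the 9 motifs lay within the exact interval of the members' share. AP-1, the Fos and Jun dimer, was found in 7 of 37 (18.9%, genome 20.0%), KLF in 6 (16.2%, genome 15.7%), TEAD in 3 (8.11%, genome 14.9%), RUNX in 3 (8.11%, genome 15.7%) and the CTCF core in 4 (10.8%, genome 5.01%). The homeodomain letters were in 1 (2.70%, genome 3.21%) and SOX in 0 (genome 2.06%). The E-box was in 9 of 37 (24.3%, genome 15.5%). By fate, AP-1 was in 0 of the 10 regions without a peak from day 1 on (up to 30.8%, genome 21.6%) and in 5 of the 15 with a peak on day 9 (33.3%, 11.8 to 61.6, genome 12.6%). In 400 bases these were 3 of 10 (genome 43.4%) and 7 of 15 (genome 19.3%). Of the regions with a peak on day 9, 6 of the 15 and 10519 of the genome's 20421 lay within 1 kb of a TSS. Among regions farther away, AP-1 was in 0 of 8 lost from day 1 (genome 22.1%). It was in 5 of 9 with a peak on day 9 (55.6%, 21.2 to 86.3, genome 22.8%). In 400 bases these distal counts were 3 of 8 (genome 44.4%) and 7 of 9 (77.8%, 40.0 to 97.2, genome 33.5%). Near and far from a TSS together, the E-box was in 2 of 10 and 5 of 15 (genome 17.6 and 11.5%). Farther than 1 kb it was in 2 of 8 and 3 of 9 (genome 17.8 and 17.4%). At all distances TEAD went the other way, in 2 of 10 and 1 of 15 (genome 15.8 and 12.6%), and in 400 bases in 4 of 10 and 2 of 15. KLF was in 1 of 10 and 3 of 15 (genome 7.83 and 27.1%), and the CTCF core in 1 of 10 and 2 of 15. The homeodomain letters were in 0 of 10 and 1 of 15. RUNX, SOX and the octamer were in 0 of either. The AP-1 contrast was thus 1 among 9 motifs looked at. The 15 regions with a peak on day 9 had a median GC content of 54.0% against 47.8% in the 10 lost at once, and the genome showed 58.0 and 45.5%.

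Other transcription factor genes of the mesenchyme were followed in the same way. A list of 26, among them *Foxc1*, *Msx1*, *Alx4*, *Tbx3* and *Nr2f2*, had 84 day 0 regions, of which 52.4, 44.0, 53.6, 57.1 and 44.0% had a peak on days 1, 2, 3, 6 and 9, and 15.5% in ESCs. Of the 84, 25 had no peak from day 1 on (29.8%, 20.3 to 40.7, background 42.4%). From day 9 on 14 had none (16.7%, background 10.0%), and 24 had none in ESCs alone (28.6%, background 15.7%). A TSS peak was present at 17 of 26 on day 0 (background 58.4%), 13 to 17 on days 1 to 9 (background 50.5 to 56.2%) and 8 in ESCs (background 49.3%). Of 79 regions without a day 0 peak, 14 had one in ESCs (17.7%, background 29.6%).

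A list of 14 pluripotency factors, given for contrast, kept a peak at 40.0 to 52.0% of its 25 day 0 regions on days 1 to 9 and at 24.0% in ESCs. From day 1 on, 8 of the 25 had none (32.0%, 14.9 to 53.5, background 42.4%), where the 10 windows had 27.0%. A low share lost from day 1 was thus not particular to the fibroblast factors. Of the 14 genes, 7 had a TSS peak on day 0 (background 58.4%), 4 to 6 on days 1 to 9 (background 50.5 to 56.2%) and 5 in ESCs (background 49.3%). The list thus had no more TSS peaks in ESCs than on day 0. It differed in what was gained, with an ESC peak at 20 of its 28 regions without a day 0 peak (71.4%, 51.3 to 86.8, background 29.6%). That interval lies above the 20.5% of the 10 windows.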

How the data were processed

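ATAC-seq was analysed in 7 mouse libraries, 1 per time-point. The authors ran Trimmomatic, Bowtie2 against mm10, SAMtools fixmate and Picard duplicate removal, downsampled to a common depth, and used MACS2 on each sample separately. The deposited lists hold chromosome, start and end only, so how many reads support a peak is unknown, and a missing peak means that none was called.

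Positions count from 1. Peaks on chromosomes 1 to 19, X and Y were merged with Python 3.11.15, genes came from GENCODE M21 (TSSs of protein-coding transcripts), and sequence was read from GRCm38.p6 with pysam 0.24.0. Results of the code were compared with BEDTools 2.31.1 and with simulated data. Exact (Clopper-Pearson) 95% intervals came from scipy 1.17.1. No test was made between libraries. The members, gene lists and motifs were chosen with earlier results of these data known.

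All 10 members were named. Regions given with positions are those at a TSS, the widest day 0 region away from one, those with a peak in all 7 libraries, ESC regions without a day 0 peak and those with a peak on each doxycycline day alone. Further regions, motif counts in gained and in distal regions, the genome's shares under other region rules and the composition at each TSS were added after their values were seen. Alternatives were a width of at least 300 bp, equal numbers of widest peaks, 50% of day 0 bases covered, a peak within 500 bp, merging within 300 bp, windows of 5 and 50 kb, the nearest TSS, other TSS definitions, 400 bases for motifs, dating by the first library without a peak and leaving out days 2 and 9.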

Additional observations from a re-analysis of the deposited data

How the results depend on the processing

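Of 193 values under an alternative, 162 stayed within the interval or a ratio of 1.5 and 31 moved, and the cause was not tested where the alternative does not give it. With peaks at least 300 bp wide, fewer by construction, the windows held 22, 20, 13, 24, 21, 12 and 5 peaks on days 0, 1, 2, 3, 6 and 9 and in ESCs, TSS peaks numbered 4 on day 2 and 1 in ESCs, and gained regions 3 with an ESC peak, 17 on doxycycline days alone and 1 on each of them. With equal numbers of widest peaks (27074), the windows held 18, 20, 23 and 25 peaks on days 0, 1, 3 and 6, day 0 regions with a peak on day 2 were 66.7%, and gained regions on doxycycline days alone 19. With 50% of the day 0 bases covered, the shares were 29.7% on day 2 and 37.8% on day 6, and 1 region had a peak on each doxycycline day alone, as it was when the nearest TSS had to be the member's. Windows of 50 kb held 33 peaks on day 9, 24 in ESCs and 14 gained ESC regions, and windows of 5 kb 5 of these. Without days 2 and 9, 7.89% of day 0 regions were lost between and 44.7% in ESCs alone, and 4 regions had a peak on each remaining doxycycline day alone. With the start of the gene record only, 5 members had a TSS peak on day 0 and 2 in ESCs. No paired analysis was possible because the groups hold 1 library each. Peaks carry no reads or scores, so depth near the threshold could not be examined.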
